A study of Mus musculus with 3 samples.

Results

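Inner hair cells (IHCs), the sensory cells of the cochlea that signal sound to the auditory nerve, were picked out by their transcripts in 3 single-cell RNA-seq libraries of the mouse cochlea. A barcode counted as an IHC when it had 200 to 6000 genes, at most 15% of its unique molecular identifiers (UMIs) from mitochondrial genes, at least 1 *Otof* UMI, a UMI in at least 3 of *Otof*, *Slc17a8*, *Calb2*, *Dnajc5b*, *Myl4*, *Ripor3* and *Atp2a3*, and less than 0.5% of its UMIs from *Ocm*, a gene of outer hair cells (OHCs). The rule chose 258 of the 14378 barcodes that met the gene and mitochondrial limits, and of the 32657 barcodes deposited. They comprised 55 of 1662 barcodes in P14 replicate 1, 112 of 5651 in P28 replicate 1 and 91 of 7065 in P28 replicate 2. Because the study removed barcodes with over 3000 genes, its filter would have kept 110 of these IHCs (41, 36 and 33) and removed 148 (14, 76 and 58), here called gene-rich. The mice were C57BL/6J without a transgene or drug treatment, aged 14 days (P14) or 28 days (P28). Each library pooled 14 cochleae of 7 mice, mainly their upper basal to apical turns, dissociated in Collagenase IV and run on the 10x Genomics platform. There was 1 library at P14 and 2 at P28, so the spread between libraries at P14 was not measured. The IHCs held 280261, 994601 and 656924 UMIs in the libraries, in the order just given, with a median per barcode of 1328, 9729.5 and 7411 UMIs. The P14 IHCs were therefore the shallowest. Libraries shared 10, 20 and 54 barcode sequences between pairs, none of which was an IHC in both libraries of a pair.

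IHCs rest on a calcium-driven synapse. Sound bends the stereocilia, transduction channels at their tips open, and the depolarised cell opens L-type calcium channels beside a ribbon that tethers glutamate-filled vesicles. Otoferlin, the product of *Otof*, is the calcium sensor for release, and VGLUT3, the product of *Slc17a8*, loads glutamate into the vesicles. OHCs instead amplify sound mechanically with the motor protein prestin and are the main targets of the cholinergic efferent fibres, which is why they are the nearest cell type to compare with.

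The 7 genes that chose the IHCs stood far above the other barcodes, which is a consequence of the rule and is given without a test. Levels are summed UMIs of a gene scaled to 1000000 UMIs of the class in a library (CPM), in the order P14 replicate 1, P28 replicate 1 and P28 replicate 2. *Otof* was at 3047, 2964 and 2732 CPM in IHCs, at 69.8, 504 and 439.6 CPM in OHC barcodes and at 20.1, 60.0 and 42.7 CPM in all other barcodes, which include the OHC barcodes. *Slc17a8* was at 1434, 1639 and 1688 CPM in IHCs and *Calb2*, which encodes the calcium buffer calretinin, at 3315, 3512 and 3501 CPM. *Myl4*, a myosin light chain, was at 621, 168 and 157 CPM and *Dnajc5b*, which encodes a relative of the synaptic vesicle chaperone cysteine string protein, at 946, 193 and 172 CPM, so that both were lower in each P28 library than at P14. *Ripor3* was at 457, 866 and 653 CPM and *Atp2a3*, the calcium pump SERCA3 of the endoplasmic reticulum, at 1420.1, 1408 and 1253 CPM. All 7 genes had a UMI in 16, 42 and 27 of the IHCs, and exactly 3 of them in 7, 10 and 13.

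**Figure D1:**
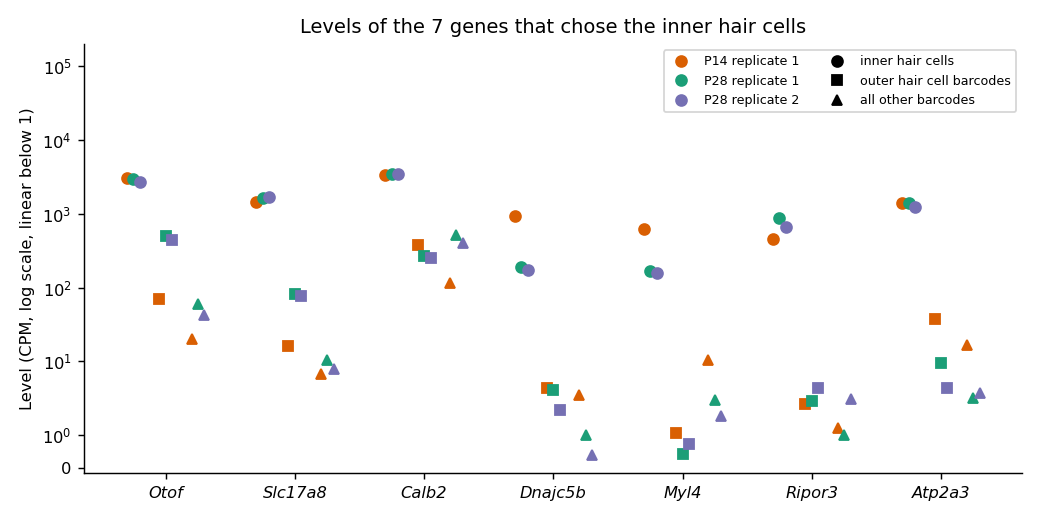
Levels of the 7 genes that chose the inner hair cells, in CPM on a log axis that is linear below 1, for IHCs (circles), OHC barcodes (squares) and all other barcodes (triangles), with 1 point per library (P14 orange, P28 replicate 1 green, P28 replicate 2 purple). The circles of *Otof* lie between 2732 and 3047 CPM, and those of *Dnajc5b* and *Myl4* are lower in both P28 libraries than at P14.

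The threshold of the rule for *Ocm* fell in a sparse region, and that for the number of markers had barcodes close by on both sides. Barcodes with *Otof* and exactly 2 of the 7 genes numbered 3, 32 and 62, and IHCs with exactly 3 or exactly 4 numbered 7, 10 and 13 and 8, 7 and 8. *Ocm* took at most 0.227%, 0.421% and 0.326% of the UMIs of an IHC. The 20, 111 and 51 barcodes that met every condition but the *Ocm* limit all counted as OHC barcodes, the lowest of them at 1.08%, 0.595% and 0.949%. IHCs with exactly 3 of the 7 genes had *Otof* at 796, 821 and 810.2 CPM, barcodes just outside with exactly 2 had 569, 153 and 307 CPM, and IHCs with 6 or 7 had 3367, 3042 and 3004 CPM. A further 21, 30 and 43 barcodes met every condition but the mitochondrial limit.

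Genes outside the rule were examined to check the label, after each barcode was thinned to 1000 UMIs. *Myo6*, a hair cell myosin, had a UMI in 69.7%, 72.3% and 59.6% of the IHCs that reached this depth, against 0%, 10.4% and 10.2% of macrophage barcodes, which should lack it. *Pou4f3*, a transcription factor hair cells need to survive, had a UMI in 39.4%, 32.7% and 38.2% of IHCs against 0%, 0.398% and 0% of macrophage barcodes. Both genes mark hair cells in general. *Tbx2*, a transcription factor known to set IHC against OHC identity, had a UMI in 21.2%, 33.7% and 43.8% of IHCs, against 0%, 0% and 0.709% of OHC barcodes. Median depths before thinning were 6346, 10359 and 7477 UMIs in these IHCs and 5423, 2681 and 2340 UMIs in the macrophage barcodes. *Myo6*, *Pou4f3* and *Tbx2* went with the label. *Rprm*, another gene set down as an IHC gene, had a UMI in 0 of 33 and 0 of 101 thinned IHCs in P14 replicate 1 and P28 replicate 1, and in 3.37% in P28 replicate 2. Without thinning it had a UMI in 5 of 55, 8 of 112 and 9 of 91 IHCs, so the thinned counts set no limit on the share expressing it. Shares of the other genes set down for this check are not reported here.

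Of the genes that chose the IHCs, the promoters of *Slc17a8*, *Atp2a3*, *Myl4* and *Ripor3* were read for the T-box core because *Tbx2* stood apart between hair cell types. Those of *Otof*, *Calb2* and *Dnajc5b* are not reported here. The 250 bases before the start of 3 of them are shown, from RefSeq on GRCm38.p6, with matches to GGTGTG or its reverse complement CACACC in capitals. They lie at chr10:89621250-89621499 on the minus strand, chr11:72960919-72961168 on the plus strand and chr11:104550413-104550662 on the plus strand, and the first gene has 2 annotated starts in the table.
Slc17a8: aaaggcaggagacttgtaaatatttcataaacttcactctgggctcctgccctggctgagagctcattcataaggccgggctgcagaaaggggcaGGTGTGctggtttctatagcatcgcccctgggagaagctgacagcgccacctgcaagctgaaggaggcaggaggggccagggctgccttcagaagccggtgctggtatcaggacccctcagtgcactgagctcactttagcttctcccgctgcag
Atp2a3: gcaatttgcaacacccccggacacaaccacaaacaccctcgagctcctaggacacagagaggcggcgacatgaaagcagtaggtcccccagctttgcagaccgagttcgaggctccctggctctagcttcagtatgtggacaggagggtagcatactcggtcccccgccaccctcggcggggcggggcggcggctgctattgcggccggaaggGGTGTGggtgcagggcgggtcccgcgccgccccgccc
Myl4: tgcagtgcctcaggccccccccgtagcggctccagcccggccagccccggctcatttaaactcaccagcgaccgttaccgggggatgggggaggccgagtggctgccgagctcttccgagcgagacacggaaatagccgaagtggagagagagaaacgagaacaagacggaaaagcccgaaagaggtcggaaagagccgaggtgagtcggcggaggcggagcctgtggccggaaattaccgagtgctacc
The letters occurred once in the *Slc17a8* and *Atp2a3* sequences and not in that of *Myl4*. In the same window of *Ripor3*, also a gene of the rule, they did not occur. They were found in 16.3% of all 32851 promoters of this length, in 14.7% of 9860 promoters of genes tested against OHC barcodes, in 14.8% of 1745 promoters of genes higher in IHCs than in OHC barcodes and in 14.5% of 1742 promoters of genes lower in IHCs.

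Many IHC barcodes also carried RNA of supporting cells, the glia-like cells that surround each hair cell, in amounts that varied between barcodes and libraries. A list of 14 such genes was summed in each barcode. The median share of UMIs was 0.442% and 0.393% in the gene-rich IHCs of the P28 libraries and 0.184% in those at P14. In IHCs with up to 3000 genes it was 0.0086% and 0.106% at P28 and 0.0787% at P14. OHC barcodes had medians of 0%, 0.0107% and 0.0252% in the 3 libraries. *Sox2*, a transcription factor of supporting cells, had a UMI in 5 of 55, 70 of 112 and 54 of 91 IHCs, which were not matched in depth, and in 7 of 262, 20 of 363 and 12 of 282 OHC barcodes. Summed over the list, IHCs stood at 2701, 4073 and 4004 CPM. Its most abundant gene was *Epyc* at P14 and the glutamate transporter gene *Slc1a3* at P28. *Fgfr3* and *Prox1*, markers of Deiters and pillar cells, were at 0, 7.04 and 1.52 CPM and at 0, 2.01 and 1.52 CPM, so these defining markers were at or near 0. No doublet caller was run. Whether the supporting cell RNA came from attached cells, from free RNA or from the IHCs was not tested. The comparisons were therefore repeated in the 78 IHCs (30, 31 and 17) in which the list took under 0.1% of the UMIs, a cut-off chosen after the data were seen. These are part of all IHCs, so the repeats share data with the first comparisons. These IHCs were shallower than the other IHCs, with medians of 1262, 1407 and 2376 against 1834, 10703 and 8116.5 UMIs, and at P28 they held more RNA of some other cell types. The 12 fibrocyte and mesenchyme markers summed to 223, 1432 and 10911 CPM in them and to 708, 386 and 1112 CPM in the other IHCs. The 8 macrophage markers summed to 14.0, 69.9 and 803 CPM against 0, 4.54 and 6.70 CPM. The most abundant gene of the first list at P28 was *Ptgds*, at 14.0, 489 and 6509.8 CPM, which passed as higher in the low-supporting IHCs than in OHC barcodes (log2 fold change 2.22, edgeR adjusted p = 4.42e-05). So these IHCs were low in supporting cell RNA and not in RNA of every other cell type.

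**Figure D2:**
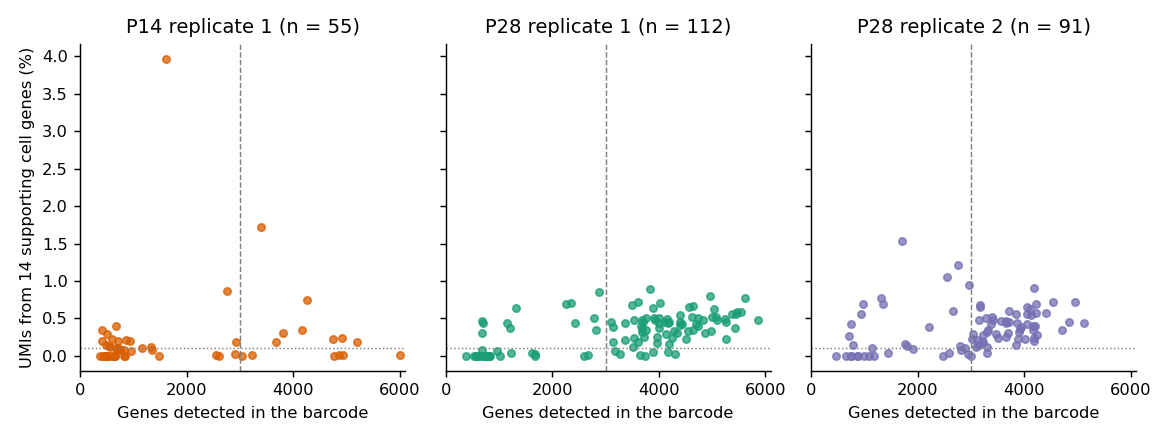
Each point is 1 IHC, with the number of genes detected on the x axis and the percent of its UMIs from 14 supporting cell genes on the y axis, in 1 panel per library. The dashed line marks 3000 genes and the dotted line 0.1%. Most gene-rich P28 IHCs lie above the dotted line (69 of 76 and 56 of 58), and 24 of 36 and 15 of 33 of those with fewer genes lie below it.

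Markers of other cell types were also found. Those of fibrocytes, macrophages and red blood cells were highest in the shallower IHCs of P28 replicate 2. Whether the markers came from other cells or from the IHCs was not tested. The 8 macrophage markers summed to 7.14, 12.1 and 79.2 CPM in IHCs. Among 12 fibrocyte and mesenchyme markers the sum was 460.3, 507 and 2003 CPM, led by *Otos* at P14 and *Ptgds* at P28, and it reached 9326 CPM in the IHCs with up to 3000 genes of P28 replicate 2. The 15 spiral ganglion neuron markers outside the rule summed to 353, 309 and 358 CPM, led by *Nefl* in each library, and *Scn1a*, *Thy1* and *Tubb3* were at or near 0. The 7 red blood cell genes summed to 310.4, 1092 and 1193 CPM, led by *Hbb-bs*, and to 6830 CPM in the IHCs with up to 3000 genes of P28 replicate 2. The 9 genes of the stria and Reissner membrane summed to 32.1, 136 and 158 CPM and 11 glial genes to 111, 207 and 298 CPM, the latter led by *Sox10*. Of the 7 B lineage genes *Ebf1* alone gave 514, 722 and 840.3 CPM, and the B cell receptor genes *Cd79a* and *Cd79b* were at or near 0. The 11 OHC genes summed to 2141, 2826 and 2627 CPM, led by *Chst2*, and *Slc26a5*, which encodes prestin, had no UMI in the first 2 libraries. *Chst2* was at 1535, 2463 and 2192 CPM in low-supporting IHCs and at 913, 1936 and 1706 CPM in the other IHCs. *Nefl* was at 265, 236 and 284 CPM against 117, 160 and 172 CPM.

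Against all other barcodes, more genes of the transduction, stereocilia and hair cell regulator lists were called higher than lower in IHCs. The lists were not tested as sets. Summed UMIs of the IHCs and of the other 14120 barcodes were compared in edgeR's quasi-likelihood test, 3 sums against 3, with the library as a block. The test covered 13057 genes and called 1809 (13.9%) higher and 2968 (22.7%) lower in IHCs. In the mechanotransduction list 14 of 20 tested genes were higher and 2 lower, in the stereocilia list 15 of 26 were higher and 5 lower, and among hair cell regulators 10 of 14 were higher and none lower. The lists' median log2 fold changes were 1.88, 1.42 and 1.42 against a median of -0.16 over all genes tested. In the 78 IHCs low in supporting cell RNA these counts were 11 and 0 of 19, 14 and 7 of 26, and 7 and 2 of 14, where 887 (7.05%) of 12590 genes were higher and 2064 (16.4%) lower. Both directions occurred in the transduction list. *Whrn*, the scaffold whirlin at stereocilia tips, was at 114, 121 and 113 CPM in IHCs and 5.87, 7.03 and 6.76 CPM in the other barcodes (log2 fold change 3.98, SE 0.20, edgeR adjusted p = 3.91e-06). *Piezo2*, a touch channel, had no UMI in IHCs and was at 10.5, 5.04 and 7.64 CPM in the others. Without P14 replicate 1 the number of higher genes was 3055, and it was 938 without P28 replicate 1 and 1045 without P28 replicate 2, where 1727 and 1872 genes were lower. Among 34 tested genes of vesicle release 9 were higher and 14 lower, and 9 and 6 of 33 in the low-supporting IHCs. Those lower included the neuronal SNARE partners *Snap25* (log2 fold change -3.65, SE 0.51, edgeR adjusted p = 0.000355) and *Cplx1* (-6.06, and -4.15 in the low-supporting IHCs), and the other barcodes include the spiral ganglion neurons. In both genes the difference was seen in the P28 libraries and not at P14. *Snap25* was at 21.4, 53.3 and 59.4 CPM in IHCs and 21.3, 848 and 817 CPM in the others, so that the groups were level at P14. None of the 27 tested energy genes was higher and 13 were lower, with a median of -0.66, and 8 of 26 were lower in the low-supporting IHCs.

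Genes that led the IHCs over all other barcodes were scarce transcripts with few UMIs elsewhere, which a ranking by fold change favours. *Gm36669* had 5, 26 and 23 UMIs in IHCs and none in the other 14120 barcodes, at least 498-fold higher when the floor of 3 UMIs is taken over the group. *March4*, a ubiquitin ligase gene, had 30, 188 and 87 UMIs in IHCs against 1, 6 and 7 UMIs elsewhere (log2 fold change 8.97, SE 0.29, edgeR adjusted p = 4.15e-07). *Scn3b*, an accessory subunit of sodium channels, had 6, 69 and 46 UMIs against 0, 12 and 4 UMIs (log2 fold change 7.54, SE 0.42, edgeR adjusted p = 3.91e-06). The kinase gene *Stk32c* stood at 78.5, 51.3 and 44.1 CPM against 1.26, 0.212 and 0.397 CPM (log2 fold change 6.70, SE 0.40, edgeR adjusted p = 4.1e-06), and *Dlk2*, a Notch pathway ligand relative, at 21.4, 33.2 and 15.2 CPM against 0, 0.169 and 0.353 CPM (6.54). *Mylk2*, a myosin light chain kinase, was at 17.8, 41.2 and 39.6 CPM against 0.699, 0.508 and 0.442 CPM (5.94). The groups did not overlap for *March4*, *Scn3b*, *Stk32c*, *Dlk2* and *Mylk2*. The 12 leading genes also held *Nrgn*, *Gm36199*, *Ttc34*, *D630023F18Rik*, *4930431P03Rik* and *Gm13373*. *Gm36669*, *4930431P03Rik* and *Gm13373* were too scarce to be tested in the 78 low-supporting IHCs, and the other 9 were higher there as well, with estimates of 7.30 and 7.46 for *Stk32c* and *Dlk2*. The 6 leading genes on the lower side had no UMI in any IHC. They were *S100a8*, *Ngp* and *Camp* of neutrophils, *Bglap* of osteoblasts, and *Ntng1* and *Tubb4a*, which neurons express. *S100a8* was at least 171-fold lower in IHCs.

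Between the hair cell types the differences were large and went both ways. IHCs were compared with 907 OHC barcodes (262, 363 and 282), which had at least 0.5% *Ocm* and a UMI in at least 2 of 6 OHC genes, and the 14 genes of both rules were left out. Among 9625 genes, 1676 (17.4%) passed as higher and 1738 (18.1%) as lower in IHCs, with a median log2 fold change of -0.07. In the low-supporting IHCs, with fewer barcodes and UMIs, 553 (6.65%) of 8322 genes were higher and 627 (7.53%) lower. Under library totals without TMM scaling that median was 0.07 and the split 2036 to 1322, while against all other barcodes the median moved from -0.16 to -0.0033 and the split to 2280 and 2480. Without P14 replicate 1 the number of genes higher than in OHC barcodes was 2571, without P28 replicate 1 it was 934 with 754 lower, and without P28 replicate 2 it was 1116 with 951 lower.

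Genes that led the IHCs over OHC barcodes were almost silent in the latter, which a ranking by fold change favours. *Nrgn*, the calmodulin-binding neurogranin, was at 264, 66.4 and 68.5 CPM in IHCs, with 185 UMIs in IHCs against 1 in OHC barcodes, a ratio of 542-fold (95% counting interval 96.0 to 21506). It was highest at P14. *Tpbgl* was at 143, 233 and 216 CPM, with 414 UMIs in IHCs against 2, a ratio of 606-fold (95% counting interval 167 to 5021). This gene lies on chromosome 7 (99624082 to 99627103, minus strand) and overlaps *Gm10605* (99625936 to 99631711, plus strand), also among the leading genes. The sources used here do not say whether counting used the strand, so the reads of this pair cannot be told apart. *March4* was at 107, 189 and 132 CPM (305 UMIs in IHCs against 3) and *Tctex1d1*, a dynein light chain relative, at 46.4, 85.5 and 71.5 CPM (145 UMIs in IHCs against 1). *Rps6ka2*, which encodes a ribosomal S6 kinase, was at 357, 438 and 374 CPM in IHCs and 0.537, 2.07 and 2.18 CPM in OHC barcodes (log2 fold change 7.71, SE 0.27, edgeR adjusted p = 9.53e-07). *Ntf3*, the neurotrophin that spiral ganglion neurons depend on, was at 60.7, 35.2 and 45.7 CPM, with 82 UMIs in IHCs against 1, a ratio of 240.1-fold (95% counting interval 41.9 to 9596). *Prdm12*, a transcription regulator known from sensory neurons, was at 71.4, 50.3 and 53.3 CPM with 105 UMIs in IHCs against 1. It had no UMI in the low-supporting IHCs, and stood at 146, 56.8 and 58.6 CPM in the IHCs with more supporting cell RNA. *Otol1*, an otolith protein gene, was at 149.9, 21.1 and 28.9 CPM in all IHCs and at 14.0, 0 and 0 CPM in the low-supporting ones. For all of these genes the IHC level exceeded that of OHC barcodes in each library, which the choice of leading genes required. Of the 12 leading genes, 9 passed in the low-supporting IHCs, and *Prdm12*, *Otol1* and *Gm36669* were not tested there.

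The leading genes on the OHC side had at most 2 UMIs in all IHCs, and ranking by fold change favours such genes. *Wnt4*, a Wnt ligand, had 494, 212 and 147 UMIs in OHC barcodes and none in the 258 IHCs, at least 97.1-fold lower. *Cel*, a lipase gene, had 61, 181 and 83 UMIs and was at least 37.0-fold lower. *Grp*, which encodes a neuropeptide, had 71, 158 and 61 UMIs and was at least 33.0-fold lower. No UMI was found in IHCs for 10 of the 12 leading genes, which also took in *Dnah8*, *Gm44691*, *Rasd2*, *Btc*, *Wfdc1*, *St8sia5* and *Sdr9c7*. *Elovl2*, a fatty acid elongase, had 1 UMI in IHCs against 598 in OHC barcodes, 204-fold (95% counting interval 36.5 to 8081) lower, and *1600022D10Rik* had 2 UMIs in IHCs against 1157.

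Transcription and splicing regulators also went both ways. *Tbx2* was at 260.5, 485 and 466 CPM in IHCs and 0, 7.03 and 11.6 CPM in OHC barcodes (log2 fold change 5.95, SE 0.39, edgeR adjusted p = 7.41e-06), and the estimate was 6.01 in the low-supporting IHCs. All IHC libraries lay above all OHC sums. *Srrm4*, a splicing regulator of neurons and hair cells, was at 46.4, 29.2 and 16.7 CPM against 4.29, 2.07 and 2.91 CPM (log2 fold change 3.16, SE 0.41, edgeR adjusted p = 0.000337), and was not tested in the low-supporting IHCs. *Isl1*, a LIM homeodomain factor, was lower in IHCs, at 71.4, 138 and 142 CPM against 224, 438 and 424 CPM (log2 fold change -1.80, SE 0.15, edgeR adjusted p = 2.35e-05), and -3.39 in the low-supporting IHCs. Among 14 regulators tested 4 were higher and 7 lower, against 17.4% and 18.1% of all genes. Those lower included *Pou4f3* (-0.67), *Gfi1* (-0.80), *Rbm24* (-1.09) and *Lhx3* (-1.87). In the low-supporting IHCs, with fewer UMIs, none of these passed the test, and the estimates were -0.50, -0.46, -0.49 and -1.06. There 2 of 12 regulators were higher and 1 lower, against 6.65% and 7.53% of all genes.

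Presynaptic genes went both ways. Of 29 release and ribbon genes tested, 6 were higher and 9 lower in IHCs, against 17.4% and 18.1% of all genes. The median was -0.25 against -0.07 for all genes. In the low-supporting IHCs these counts were 5 and 4 of 27, against 6.65% and 7.53%, with a median of -0.02. *Rims2*, an active zone scaffold that recruits calcium channels, was at 186, 126 and 108 CPM in IHCs and 4.83, 2.89 and 1.46 CPM in OHC barcodes (log2 fold change 5.29, SE 0.26, edgeR adjusted p = 2.04e-06). *Cabp1*, a calcium-binding protein that tunes calcium channels, was at 74.9, 85.5 and 82.2 CPM against 1.07, 3.31 and 2.18 CPM (log2 fold change 4.92, SE 0.32, edgeR adjusted p = 7.41e-06). Its relative *Cabp2* differed less, at 1020.5, 854 and 790.0 CPM against 654, 502 and 512 CPM (log2 fold change 0.52, SE 0.12, edgeR adjusted p = 0.0085). The vesicle GTPase gene *Rab3c* stood at 32.1, 38.2 and 30.4 CPM against 0, 0.827 and 0.728 CPM (5.60) and the channel subunit gene *Cacna2d2* at 21.4, 34.2 and 30.4 CPM against 6.44, 5.38 and 5.82 CPM (2.17). These 5 genes were also higher in the low-supporting IHCs, with estimates of 5.94, 6.06, 1.12, 6.32 and 2.86. The pore subunit gene *Cacna1d* of the L-type calcium channel was lower in IHCs, at 232, 109.6 and 122 CPM against 384, 619 and 529.8 CPM (log2 fold change -1.99, SE 0.30, edgeR adjusted p = 0.000798), and the estimate was -1.17 in the low-supporting IHCs. Its counts cannot separate splice forms. *Cplx2*, *Nsf* and *Napa*, which act on SNARE complexes, were lower too (-2.12, -1.41 and -0.93, and -2.83, -1.12 and -1.30 in the low-supporting IHCs). The ribbon gene *Ctbp2* was at 74.9, 75.4 and 51.8 CPM against 49.4, 85.6 and 67.7 CPM and did not pass the test (log2 fold change -0.24, SE 0.21, edgeR adjusted p = 0.431), with log2 fold change 0.42, edgeR adjusted p = 0.492 in the low-supporting IHCs.

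Genes of vesicle membrane retrieval went both ways. Of 20 genes tested 6 were higher and 6 lower, against 17.4% and 18.1% of all genes. In the low-supporting IHCs these counts were 7 and 4, against 6.65% and 7.53%. *Dnm1*, the neuronal dynamin that cuts vesicles from the membrane, was at 464, 377 and 416 CPM in IHCs and 51.5, 74.4 and 57.5 CPM in OHC barcodes (log2 fold change 2.60, SE 0.19, edgeR adjusted p = 1.33e-05), with an estimate of 3.22 in the low-supporting IHCs. *Bin1*, an amphiphysin relative, was at 285, 247 and 253 CPM against 105, 60.8 and 60.4 CPM (log2 fold change 1.69, SE 0.17, edgeR adjusted p = 6.56e-05). Among the endophilins, which bend the membrane for dynamin, *Sh3gl2* was higher in IHCs at 125, 138 and 137 CPM against 27.9, 21.1 and 23.3 CPM (log2 fold change 2.33, SE 0.18, edgeR adjusted p = 1.79e-05). *Sh3gl3* was lower at 7.14, 14.1 and 13.7 CPM against 746, 777 and 781 CPM (log2 fold change -6.09, SE 0.21, edgeR adjusted p = 9.53e-07). Neither pair overlapped between cell types, and in the low-supporting IHCs the estimates were 2.39 and -7.01. In the list of vesicle acidification and glutamate supply 5 of 20 genes were higher and 2 lower, and 2 and 1 of 20 in the low-supporting IHCs, against 17.4% and 18.1%, and 6.65% and 7.53%, of all genes. Among those higher in all IHCs was *Atp6v0c*, a proton pump subunit, at 767, 719.9 and 669.8 CPM against 473, 477 and 451 CPM (log2 fold change 0.46, SE 0.12, edgeR adjusted p = 0.0184).

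**Figure D3:**
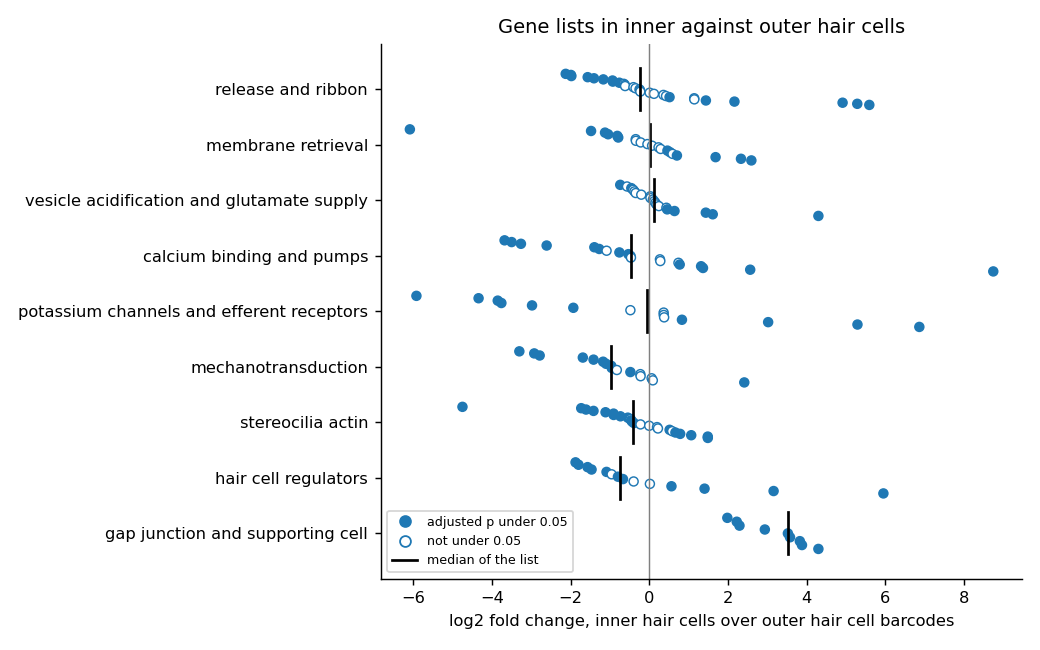
Each point is a gene of the list named on the y axis, placed by its log2 fold change in IHCs over OHC barcodes. Filled points have an edgeR adjusted p under 0.05 and black bars are medians, and the supporting cell list at the bottom has all of its 9 tested genes on the IHC side.

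Genes of calcium handling went both ways. *Atp2b1*, which encodes PMCA1, was at 778, 813 and 809.8 CPM in IHCs and 323, 275 and 266 CPM in OHC barcodes (log2 fold change 1.32, SE 0.13, edgeR adjusted p = 7.51e-05). *Atp2b2*, which encodes PMCA2, the pump of the stereocilia, was at 64.2, 52.3 and 45.7 CPM against 797, 542 and 552 CPM (log2 fold change -3.68, SE 0.16, edgeR adjusted p = 1.36e-06). The estimates in low-supporting IHCs were 1.34 and -3.67, and no sum of one type reached those of the other. *Calm2*, which encodes calmodulin, was at 6908, 5738 and 5995 CPM against 1648, 2431 and 2458 CPM (log2 fold change 1.37, SE 0.16, edgeR adjusted p = 0.000196). *Pcp4*, a small protein that binds calmodulin, was lower in IHCs at 9352, 5543 and 5511 CPM against 13962, 16056 and 16473 CPM (log2 fold change -1.40, SE 0.18, edgeR adjusted p = 0.000313). The sodium-calcium exchanger gene *Slc8a2* was lower as well (-2.61). In the low-supporting IHCs the estimates of *Calm2*, *Pcp4* and *Slc8a2* were 1.88, -0.78 and -1.76. In the whole list 5 of 19 genes were higher and 9 lower, against 17.4% and 18.1% of all genes. In the low-supporting IHCs these counts were 4 and 5 of 18, against 6.65% and 7.53%.

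Potassium channels and efferent receptors divided in the same manner. *Kcnab1*, an accessory subunit of voltage-gated potassium channels, was at 153, 240.3 and 209 CPM in IHCs and 3.76, 6.20 and 2.91 CPM in OHC barcodes (log2 fold change 5.29, SE 0.23, edgeR adjusted p = 1.3e-06). *Chrna1*, the muscle-type acetylcholine receptor subunit, was at 57.1, 61.3 and 76.1 CPM against 8.05, 7.03 and 5.82 CPM (log2 fold change 3.02, SE 0.27, edgeR adjusted p = 3.45e-05). The subunits of the efferent receptor of hair cells went the other way. *Chrna10* was at 10.7, 18.1 and 7.61 CPM against 499, 786 and 693 CPM (log2 fold change -5.92, SE 0.23, edgeR adjusted p = 1.3e-06) and *Chrna9* at 17.8, 8.04 and 9.13 CPM against 356, 156 and 141 CPM (log2 fold change -4.34, SE 0.22, edgeR adjusted p = 2.15e-06). *Kcnn2*, the SK2 channel that this receptor drives, was at 28.5, 15.1 and 13.7 CPM against 197, 220.0 and 192 CPM (log2 fold change -3.76, SE 0.23, edgeR adjusted p = 6.25e-06). All 5 of these genes passed in the same direction in the low-supporting IHCs, where the estimates of *Chrna10* and *Kcnn2* were -4.97 and -2.99. *Kcnma1*, the BK channel characteristic of mature IHCs, was at 161, 264 and 269 CPM against 114, 180.3 and 186 CPM and did not pass the test in all IHCs (log2 fold change 0.37, SE 0.14, edgeR adjusted p = 0.0687), while the low-supporting IHCs gave log2 fold change 0.99, edgeR adjusted p = 0.0018. In the list 4 of 14 genes were higher and 6 lower, against 17.4% and 18.1% of all genes. In the low-supporting IHCs these counts were 4 and 4 of 13, against 6.65% and 7.53%.

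Transduction and stereocilia genes were more often lower than higher per UMI in IHCs than in OHC barcodes, but not in the low-supporting IHCs, where fewer genes passed over all genes too. For transduction 1 of 16 genes was higher and 10 lower with a median of -0.96, and 3 and 3 of 17 with a median of -0.22 in the low-supporting IHCs. For stereocilia 6 of 24 were higher and 12 lower with a median of -0.41, against 4 and 4 of 23 and a median of -0.08. Over all genes 17.4% were higher and 18.1% lower, and 6.65% and 7.53% in the low-supporting IHCs, with a median of -0.07 in both. *Tmc1*, the pore of the transduction channel, was at 321, 264 and 277 CPM in IHCs and 768, 609 and 683 CPM in OHC barcodes (log2 fold change -1.42, SE 0.13, edgeR adjusted p = 4.21e-05). Its partners *Tmie* (-2.79) and *Lhfpl5* (-1.69) were lower too, and all of this trio passed in the low-supporting IHCs (-0.87, -1.88 and -1.23). *Strc*, stereocilin, which links OHC bundles to each other and to the tectorial membrane, was at 17.8, 22.1 and 19.8 CPM against 390.3, 529 and 501 CPM (log2 fold change -4.75, SE 0.19, edgeR adjusted p = 1.3e-06). *Whrn* went the other way, at 114, 121 and 113 CPM against 13.4, 20.3 and 24.0 CPM (log2 fold change 2.42, SE 0.22, edgeR adjusted p = 3.74e-05). *Myo3a*, a stereocilia tip myosin, was higher in IHCs as well, at 157, 41.2 and 24.4 CPM against 24.7, 16.5 and 17.5 CPM (log2 fold change 1.49, SE 0.37, edgeR adjusted p = 0.0118). The low-supporting IHCs gave -3.98, 3.01 and 2.44 for *Strc*, *Whrn* and *Myo3a*. *Espn*, the actin bundler espin, was at 803, 564 and 510.0 CPM against 1433, 1155 and 1003 CPM (log2 fold change -1.11, SE 0.12, edgeR adjusted p = 0.000117), but did not pass in the low-supporting IHCs (log2 fold change -0.48, edgeR adjusted p = 0.0664).

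Restricting the comparison to low-supporting IHCs lowered the estimates of the supporting cell genes. In all IHCs, 9 of 9 tested genes of the supporting cell list were higher than in OHC barcodes with a median of 3.53, and in the low-supporting IHCs 0 of 7 were higher and 1 lower with a median of -0.52. That change follows in part from the choice, which used these genes. *Slc1a3* moved from 4.30 to 0.57, the connexin gene *Gjb2* from 3.83 to -0.52, and *Epyc* from 2.22 to -1.83. *Sox10*, a glial and supporting cell factor that is not on the list, moved from 3.15 to -0.05. Of the 1676 genes higher in all IHCs, 1235 could be tested in the low-supporting IHCs, 458 were higher there and 7 lower. Of the 1738 lower genes, 549 of 1671 tested were lower there and none higher. These 458 and 549 genes were 82.8% and 87.6% of the 553 and 627 genes called in the low-supporting IHCs. The low-supporting IHCs are part of all IHCs and were set against the same OHC barcodes. The tests thus share data, and the overlap follows in part from that. Against all other barcodes, of the higher genes 836 of 1741 tested were higher there and 41 lower. Of the lower genes 1507 of 2872 tested were lower there and none higher. These tests share data in the same manner.

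**Figure D4:**
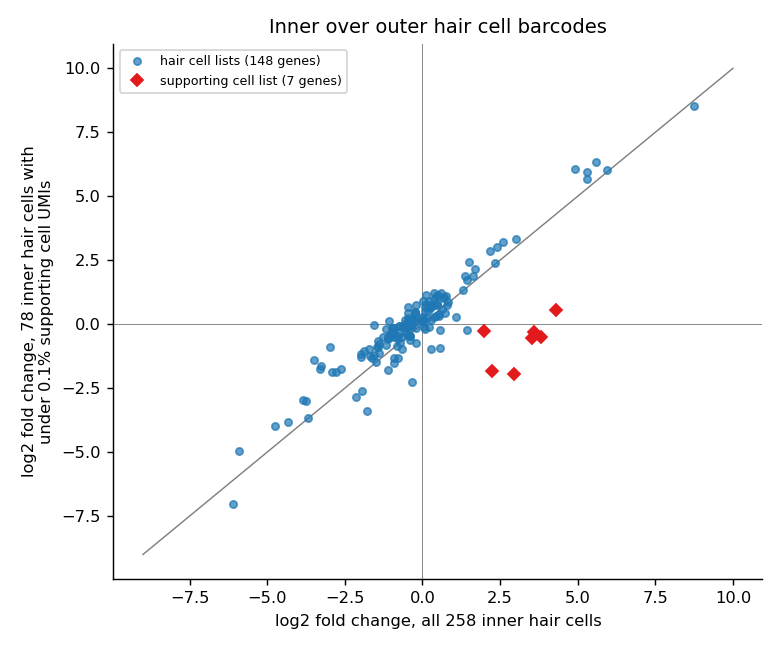
Log2 fold changes over OHC barcodes of genes of the 8 lists of hair cell function (148 genes, blue circles) and of the supporting cell list (7 genes, red diamonds), in all 258 IHCs on the x axis and in the 78 IHCs with under 0.1% supporting cell UMIs on the y axis. Blue points scatter on both sides of the line of equal values, with *Isl1* at -1.80 and -3.39 and *Cabp1* at 4.92 and 6.06, and red diamonds fall from 1.99 to 4.30 on the x axis to between -1.94 and 0.57 on the y axis.

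The number of genes called between gene-rich and other IHCs changed with the settings. The 148 IHCs with over 3000 genes were compared with the 110 IHCs with fewer. Of 3276 genes that passed the expression filter, 7 (0.214%) were higher and 39 (1.19%) lower in the gene-rich IHCs, and no gene of the release, retrieval, vesicle, calcium, channel, transduction, stereocilia or regulator lists passed. *Slc7a14*, a lysosomal transporter gene linked to hair cells and photoreceptors, was at 814, 688 and 634 CPM in gene-rich and 447, 314 and 353 CPM in other IHCs (log2 fold change 0.88, SE 0.20, edgeR adjusted p = 0.00687), and *Dpysl2*, a cytoskeletal regulator, at 770.4, 2608 and 3318 CPM against 677, 1472 and 1540.5 CPM (log2 fold change 0.69, SE 0.17, edgeR adjusted p = 0.0166). The other 5 higher genes were *Fxyd6*, *Liph*, *Marcksl1*, *Bzw1* and *Efhd1* (1.46, 1.35, 1.19, 0.86 and 0.71). Among low-supporting IHCs, where 1 (0.135%) of 742 genes was higher and 3 (0.404%) lower, *Slc7a14* passed (log2 fold change 1.498, edgeR adjusted p = 0.0215) and *Dpysl2* and *Efhd1* did not (log2 fold change 0.32, edgeR adjusted p = 0.709 and log2 fold change 0.48, edgeR adjusted p = 0.592), and the other 4 were not tested. *Dpysl2* was at 726, 1502 and 1322 CPM in low-supporting IHCs and at 767, 2645 and 3197 CPM in the other IHCs. In both P28 libraries all of these higher genes but *Slc7a14* were lower in the low-supporting IHCs than in the other IHCs. Without P28 replicate 2 edgeR called 0 genes in either direction, where 111 were higher and 140 lower at an unadjusted p under 0.05, and without P28 replicate 1 it called 2 higher and 20 lower. DESeq2 called 0 higher and 6 lower over all libraries. More genes were called among IHCs with at least 4 of the 7 markers, 86 higher and 69 lower, and with at least 10 UMIs in every sum, 20 higher and 38 lower. On the lower side were transcripts of other cochlear cells. *Ptgds* was at 63.0, 63.6 and 155 CPM against 94.7, 688 and 4102 CPM (log2 fold change -3.78, SE 0.28, edgeR adjusted p = 5.32e-20), *Otos* at 107, 31.8 and 54.6 CPM against 217, 349.8 and 2144 CPM (log2 fold change -3.76, SE 0.32, edgeR adjusted p = 2.24e-17), and *Apod*, *Apoe* and *Sparcl1* were lower too (-3.22, -2.38 and -4.14). *Neat1* and *Malat1*, both nuclear RNAs, were lower as well (-1.50 and -1.01). *Malat1* took 4.58%, 0.811% and 0.914% of the UMIs of gene-rich and 4.87%, 2.40% and 2.07% of those of other IHCs. Of the rule genes, *Otof* was at 3280.4, 2879 and 2749.6 CPM in gene-rich and 2396, 3896 and 2645 CPM in other IHCs, without one order over the libraries. *Slc17a8* was at 1672, 1683 and 1772 CPM and 772, 1158 and 1262 CPM, higher in the gene-rich IHCs of each library.

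Between P14 and P28, the energy and calcium lists had more genes lower than higher at P28 over all IHCs. The supporting cell list had more genes higher than lower. With 1 library at P14 no test was run, and a gene was set apart where its exact 95% Poisson interval at P14 overlapped neither P28 interval and both P28 levels lay on the same side. These intervals cover counting error only. Of 9519 genes with enough UMIs, 570 (5.99%) were higher and 543 (5.7%) lower at P28. Age cannot be told apart here from the preparation of the single P14 library. Gene-rich IHCs were 14 of 55 at P14 and 76 of 112 and 58 of 91 at P28. The supporting cell list summed to 2355, 4191 and 4059 CPM in the gene-rich IHCs and to 3668, 2774 and 3721 CPM in those with up to 3000 genes, where it did not rise in both P28 libraries.

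Falls were named among genes with at least 200 CPM at P14, and 8 genes led. *Lmod3*, a muscle actin nucleator, was at 514 CPM (433 to 605) at P14 and at 12.1 CPM (6.23 to 21.1) and 12.2 CPM (5.26 to 24.0) at P28, with a log2 ratio after adding 10 CPM of -4.57. It also fell in OHC barcodes (-3.34) and in all other barcodes (-4.24). *Rprm* was at 275 CPM (217 to 343) at P14 and at 12.1 CPM (6.23 to 21.1) and 13.7 CPM (6.26 to 26.0) at P28 (-3.64), with a log2 ratio of 0.04 in OHC barcodes, where it was near 0 at 2.15, 2.07 and 2.91 CPM. Only 5 of the 55 IHCs at P14 held its 77 UMIs, and 1 of them held 44. Among IHCs with up to 3000 genes the log2 ratio was 2.26, in the opposite direction. *Pvalb*, the calcium buffer parvalbumin, went from 2548 CPM (2364 to 2742) to 495 CPM (452 to 540.4) and 434 CPM (385 to 487) (-2.43, and -1.83 in OHC barcodes). *Ckb*, creatine kinase B, which buffers ATP, went from 1499 CPM (1359 to 1649) to 292 CPM (259 to 327) and 318 CPM (276 to 364) (-2.26, and -2.45 in OHC barcodes). *Gars*, *Polr2l*, *Ndufa1* and *Psmb4* completed the 8 (-2.38, -2.26, -1.94 and -1.88).

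The energy and calcium lists held more genes lower than higher at P28, where 5.7% of all genes were lower and 5.99% higher. Of 24 energy genes with enough UMIs, 15 were lower at P28 and none higher, with a median log2 ratio of -0.83 against 0.19 over all genes. *Cox5a*, a subunit of cytochrome c oxidase, was at 599, 154 and 161 CPM (-1.86, and -1.01 in OHC barcodes). *Atp5b*, of the ATP synthase, was at 664, 188 and 224 CPM (-1.64, and -0.79). Mitochondrially encoded transcripts took 6.34% of IHC UMIs at P14 and 8.80% and 8.20% at P28, and 8.39%, 12.6% and 11.9% in OHC barcodes. *Malat1* took 4.66% at P14 and 0.943% and 1.10% at P28 in IHCs, 5.55%, 1.14% and 1.33% in OHC barcodes and 4.93%, 2.02% and 2.44% in all other barcodes. Of 18 calcium-binding genes 9 were lower and 1 higher. *Calb1*, calbindin, was at 89.2, 2.01 and 1.52 CPM (-3.08), but 2 IHCs held its 25 UMIs at P14. *Nrgn* was at 264, 66.4 and 68.5 CPM (-1.82, and 0.03 in OHC barcodes, where it was near 0). In the transduction list 2 of 15 genes were lower and none higher, one of them *Ptprq*, a stereocilia phosphatase, at 232, 78.4 and 60.9 CPM. In the stereocilia list 5 of 25 were higher and 4 lower. These 2 lists also stand against the 5.99% higher and 5.7% lower of all genes.

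Several of the genes that rose most from P14 to P28 had lower levels in the IHCs with little supporting cell RNA than in the other IHCs. For *Sox2* and *Otog*, which are on the supporting cell list, that follows from the choice. *Sox2* was at 39.2 CPM (19.6 to 70.2) at P14 and 252 CPM (222 to 286) and 269 CPM (231 to 312) at P28 (2.46), and at 0, 8.73 and 16.7 CPM in the low-supporting IHCs. *Otog*, a tectorial membrane gene, was at 111, 506 and 511 CPM (2.10) and at 6.98, 26.2 and 33.5 CPM in low-supporting IHCs. *Slc12a7*, a potassium-chloride cotransporter gene, was at 211, 1054 and 1026 CPM (2.25) and at 139.5, 218 and 100.4 CPM in low-supporting IHCs, where its P28 levels no longer lay apart from P14 on one side. The others were *Fibin*, *Marcksl1*, *Slc6a6*, *Dipk2a* and *Slc20a1*. Possible doublets, IHCs with a UMI in at least 3 marker genes of a cell type other than OHCs, took in 147 of the 148 gene-rich IHCs. The same criterion was met by 90.5% of all other barcodes, and its lists hold *Sox2* and *Otog*. Without the possible doublets 53 IHCs were left (29, 20 and 4 in the 3 libraries). The log2 ratio was then negative for 6 of the 8, at -2.0002 for *Otog*, -2.07 for *Slc20a1*, -0.75 for *Fibin* and for *Dipk2a*, -0.58 for *Slc12a7* and -0.0862 for *Slc6a6*. It was 1.90 for *Marcksl1*, and 0 for *Sox2*, which is no measured lack of change because the filter used this gene. With so few IHCs left, these ratios do not decide whether the 8 genes rose. In the supporting cell list 6 of 9 genes were higher at P28 and 1 lower over all IHCs, against 5.99% and 5.7% of all genes. In low-supporting IHCs 50 (1.56%) of 3214 genes with enough UMIs were higher and 90 (2.8%) lower at P28. Among genes of hair cell function, *Slc38a1*, a glutamine transporter gene, rose from 218 CPM (166 to 279.6) to 618 CPM (570.4 to 669) and 661 CPM (600.0 to 726) (1.51), with 230.2, 777 and 1121 CPM in low-supporting IHCs and a log2 ratio of 0.17 in OHC barcodes. The SNARE gene *Vamp2* rose as well, at 121, 353 and 306 CPM (1.37), by as much as in OHC barcodes (1.39). *Kcnma1* rose from 161 CPM (117 to 215) to 264 CPM (233 to 298) and 269 CPM (231 to 312) (0.70, and 0.64 in OHC barcodes), and *Tbx2* from 260.5 CPM (204 to 328) to 485 CPM (442 to 529.9) and 466 CPM (415 to 521) (0.84). Levels of *Vamp2*, *Kcnma1* and *Tbx2* in low-supporting IHCs are not reported here. The lists that hold these genes went both ways at P28, against the same 5.99% and 5.7%. For vesicle acidification and glutamate supply 3 of 20 genes were higher and 3 lower, and for release and ribbon 1 and 2 of 27. For potassium channels and efferent receptors these counts were 1 and 1 of 12, and for hair cell regulators 3 and 2 of 14.

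**Figure D5:**
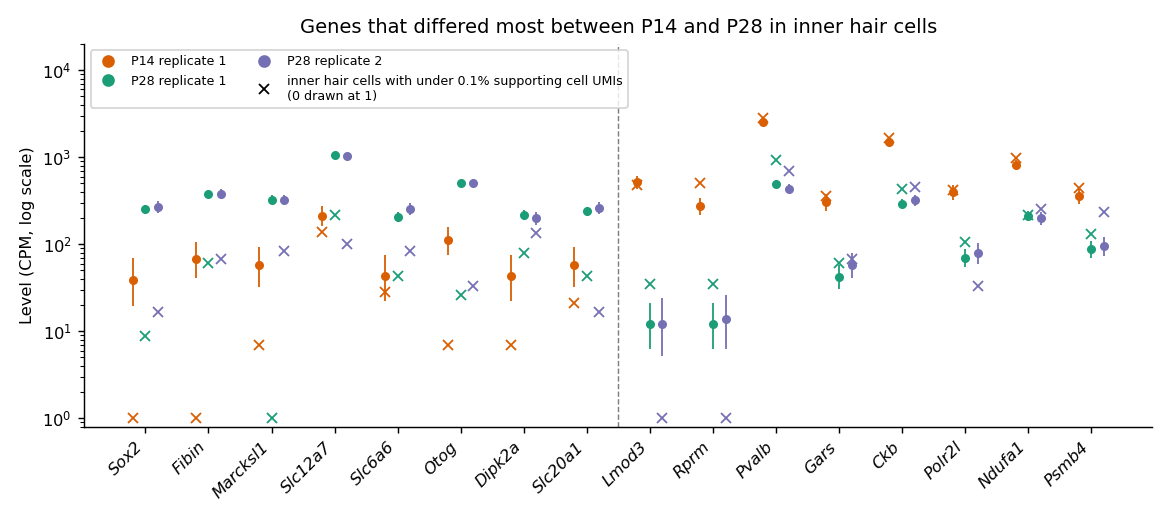
Levels in IHCs, in CPM on a log axis, of the 8 genes that rose most (left of the dashed line) and the 8 that fell most (right) between P14 and P28, with 1 point per library and exact 95% Poisson intervals. Crosses give the same genes in IHCs with under 0.1% supporting cell UMIs, with a level of 0 drawn at 1. For *Sox2* the points lie at 39.2, 252 and 269 CPM and the crosses at 0, 8.73 and 16.7 CPM, and the low crosses of *Sox2* and *Otog* follow from the choice of these IHCs by a list that holds both genes. For *Pvalb* both points and crosses fall.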

How the data were processed

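The authors deposited raw UMI counts per gene and barcode for 3 libraries made with 10x Genomics 3′ chemistry. The file headers name Cell Ranger 5.0.1 and the submitters' processing notes 6.0.1 with build mm10. Barcodes with 200 to 6000 genes and at most 15% mitochondrial UMIs were classified by the marker rules given above, and members and gene lists were chosen with earlier results of these data known. Counts of each class were summed per library. The sums were compared with edgeR 4.0.16 (TMM, filterByExpr, quasi-likelihood test, two-sided, Benjamini-Hochberg adjustment over all genes tested, threshold 0.05), with the library as a block because both sums came from the same pooled cochleae. Genes used by the rules were not tested. P-values rest on how the difference between classes varied among 3 libraries of pooled mice, because the block removes library differences that both classes share. The libraries were of both ages, so this variation includes any change in that difference between P14 and P28. It is therefore not a measure of the spread between replicate libraries alone. P14 was compared with P28 by exact 95% Poisson intervals, which cover counting error only, as do all intervals and floors (3 UMIs) here. Genes were named from the lists or as the largest changes among called genes (12 or 6 a direction between cell classes, 8 for gene-rich IHCs and for age). DESeq2 1.42.0, other scalings, filters, depth thinning and each library left out served as alternatives. Scripts were tested on simulated data. Promoters came from RefSeq (GRCm38.p6), matched by symbol. No doublets were removed. Some genes are not reported here.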

Additional observations from a re-analysis of the deposited data

Results flagged for a closer look

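The difference in level between IHCs and a comparison class was above 0 at P14 and below 0 in both P28 libraries for 4 genes the text names. The difference between the ages was not tested, and for *Snap25*, *Cplx1* and *Ctbp2* the P14 difference did not exceed counting error. The difference in level of *Snap25* between IHCs and all other barcodes stood at 0.155 CPM in the P14 library, against -794 and -758 CPM in P28 replicates 1 and 2, and rested on 6 UMIs in the P14 IHCs. For *Cplx1* the P14 library gave 2.17 CPM and the P28 libraries -271 and -254 CPM, and the P14 value rested on 1 UMI in the IHCs. The difference of *Ctbp2* between IHCs and OHC barcodes stood at 25.5 CPM in the P14 library, against -10.2 and -15.9 CPM in those of P28. Its exact 95% Poisson interval in the P14 IHCs included the OHC level of 49.4 CPM. For *Atp5g1* the P14 library gave a difference of 342 CPM and the P28 libraries differences of -2.20 and -8.70 CPM, with IHCs at 692, 269 and 249.6 CPM and OHC barcodes at 350.0, 272 and 258 CPM. Its levels in IHCs and OHC barcodes were nearly equal in both P28 libraries, so an opposite direction at P28 is not shown.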

How the results depend on the processing

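The counts of calls moved by over 1.5 times under many settings. The number of IHCs was 258, and 110 with a limit of 3000 genes, 440 without the *Ocm* limit, 53 without possible doublets (IHCs with a UMI in at least 3 genes of the marker list of a cell type other than OHCs) and 78 with the supporting cell list under 0.1%. Against all other barcodes the higher and lower calls were 925 and 952 with at least 10 UMIs in every sum, 683 and 1323 with the limit of 3000 genes, 1012 and 1740 with no replicate block, 723 and 1061 after thinning, and 141 and 536 without possible doublets, with 887 higher in low-supporting IHCs. Leaving out 1 library gave 938 to 3055 higher and 1727 to 4216 lower genes. Against OHC barcodes they were 980 and 908, 651 and 656, 1068 and 894, 515 and 461, and 79 and 149 under the same 5 settings, with 553 and 627 in low-supporting IHCs and 926 lower in DESeq2. Leaving out 1 library gave 934 to 2571 higher and 754 to 2416 lower genes. For gene-rich IHCs they were 86 and 69 with at least 4 markers, 0 and 6 in DESeq2 (27 and 85 at an unadjusted p under 0.05), 0 and 0 in edgeR with no replicate block (52 and 81 unadjusted), 0 and 2 after thinning (28 and 22 unadjusted), 1 and 3 in low-supporting IHCs, and 3 and 20 without possible doublets by 5 lists only (glia, macrophage, red blood cell, B lineage and stria). A further 20, 12 and 17 were higher with at least 10 UMIs, a mitochondrial limit of 30% and no filter, and 24 lower with library totals only. Leaving out 1 library gave 0 to 5 higher and 0 to 51 lower genes. This comparison could not be fitted without possible doublets. The higher and lower genes at P28 were 42 and 73 after thinning, 56 and 101 with the limit of 3000 genes, 5 and 7 without possible doublets and 50 and 90 in low-supporting IHCs. Thinning to 500 UMIs gave 23.2% and 19.8% of P28 IHCs with *Tbx2*, 15.2% and 14.3% with *Pou4f3*, and 54.5% with *Myo6* in P28 replicate 1. At P14 it gave 10.9% with *Tbx2* and 25.5% with *Pou4f3*. Named genes reversed in few cases, and the cause was not tested. With the limit of 3000 genes the log2 values were 2.26 for *Rprm* (IHCs at P14 and P28). With low-supporting IHCs the log2 values were 0.42 for *Ctbp2* (IHCs against OHC barcodes), -1.83 for *Epyc* (IHCs against OHC barcodes), -0.52 for *Gjb2* (IHCs against OHC barcodes) and -0.0471 for *Sox10* (IHCs against OHC barcodes). With thinning to 1000 UMIs the log2 values were 0.17 for *Ctbp2* (IHCs against OHC barcodes) and 1.43 for *Rprm* (IHCs at P14 and P28). With P14 replicate 1 left out the log2 values were -0.16 for *Atp5g1* (IHCs against OHC barcodes). With possible doublets left out the log2 values were -0.40 for *Epyc* (IHCs against OHC barcodes), -0.75 for *Fibin* (IHCs at P14 and P28), -0.58 for *Slc12a7* (IHCs at P14 and P28), -0.0862 for *Slc6a6* (IHCs at P14 and P28), -2.0002 for *Otog* (IHCs at P14 and P28), -0.75 for *Dipk2a* (IHCs at P14 and P28), -2.07 for *Slc20a1* (IHCs at P14 and P28) and 2.71 for *Rprm* (IHCs at P14 and P28). The setting without possible doublets left 29, 20 and 4 IHCs in the 3 libraries, and its lists hold *Epyc* and *Otog*. Leaving out 1 library gave -0.16 to 0.32 for *Atp5g1*. Of the other values of named genes under alternatives, 1513 planned and 214 added kept their direction and side of the threshold, 175 planned and 25 added no longer passed and 6 planned and 2 added newly passed. No paired analysis of the ages was made, because the libraries pooled different mice and nothing given ties a replicate number to a litter or batch. The low-supporting and 5-list settings were chosen after seeing the data. Depth limits the P14 IHCs most, which held 280261 UMIs.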

Other observations

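Energy genes went both ways between the hair cell types. The list had 25 tested genes, with 6 higher and 9 lower in IHCs than in OHC barcodes, against 17.4% and 18.1% of all genes, and 5 and 3 of 21 in the low-supporting IHCs, against 6.65% and 7.53%. Those higher were *Gapdh*, *Pkm*, *Pgk1*, *Pgam1*, *Aldoc* and *Cox7a1*. *Gapdh* was at 1249, 754 and 782 CPM in IHCs and 715, 363 and 329.7 CPM in OHC barcodes (log2 fold change 0.87, SE 0.13, edgeR adjusted p = 0.000809), and *Pkm*, pyruvate kinase, at 368, 346 and 295 CPM against 109, 105 and 120.1 CPM (log2 fold change 1.43, SE 0.16, edgeR adjusted p = 0.000121). Both passed in the low-supporting IHCs (0.96 and 1.62). Those lower were *Cox8a*, *Cox5a*, *Cox4i1*, *Cox6a1*, *Cox7a2*, *Atp5b*, *Ndufa4*, *Ckmt1* and *Ldhb*. *Cox8a*, a subunit of cytochrome c oxidase, was at 2494, 1691 and 1824 CPM against 3155, 3306 and 3514 CPM (log2 fold change -0.92, SE 0.14, edgeR adjusted p = 0.000904), with -0.57 in low-supporting IHCs. *Ldhb*, a lactate dehydrogenase subunit, gave -0.999 and -2.54. *Atp5g1*, of the ATP synthase, did not pass in all IHCs (log2 fold change 0.14, SE 0.21, edgeR adjusted p = 0.642), where the estimate was -0.16 without P14 replicate 1, but was higher in the low-supporting IHCs (log2 fold change 0.79, edgeR adjusted p = 0.00596).

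Among immediate early and heat shock genes 4 of 13 were higher in IHCs than in OHC barcodes and none lower, where 17.4% of all genes were higher and 18.1% lower. In the low-supporting IHCs 3 of 12 were higher and none lower. *Jund* was at 271, 235 and 248 CPM against 73.0, 109.6 and 106 CPM (log2 fold change 1.21, SE 0.18, edgeR adjusted p = 0.000839) and *Btg2* at 121, 128 and 131 CPM against 41.3, 61.2 and 51.7 CPM (log2 fold change 1.11, SE 0.17, edgeR adjusted p = 0.000889). Of 6 nuclear RNAs tested 1 was higher and 4 lower, and 0 and 2 of 6 in the low-supporting IHCs, where 6.65% and 7.53% of all genes were. *Snhg11* was at 0, 10.1 and 13.7 CPM against 149, 233 and 202 CPM (log2 fold change -4.59, SE 0.29, edgeR adjusted p = 6.96e-06), with -5.97 in the low-supporting IHCs.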
